A study of Mus musculus with 10 samples.

Results

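The semaphorins, plexins, neuropilins, ephrins, Eph receptors, Slits, Robos, netrins and netrin receptors are the classical ligands and receptors of axon guidance. They were taken here by gene symbol: protein-coding genes named Sema3 to Sema7, Plxn, Nrp, Efna, Efnb, Epha, Ephb, Slit, Robo, Ntn1, Ntn3, Ntn4, Dcc and Unc5a to Unc5d. The rule used no measured value. It found 68 genes in the annotation and 67 among the 48709 genes of the count tables, and Ntn3 is not analysed here. Of the 67, 64 had enough counts to be tested, among 16884 tested genes. Sema3g (3 to 8 counts per library), Plxnb3 (2 to 12) and Robo4 (2 to 6) did not.

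The counts come from polyadenylated RNA of mouse hippocampal neurons in primary culture. Lipid nanoparticles were given to all cultures from day 10 in vitro, and RNA was taken after 48 h, on day 12. The nanoparticles carried scramble RNA (control, 2 libraries), an inhibitor of the microRNA miR-409-5p (anti-miR-409-5p, 4 libraries) or an inhibitor of miR-501-3p (anti-miR-501-3p, 4 libraries). The labels give no strain, no age of the donor animals and no inhibitor sequence, and they do not say whether replicates are separate cultures, so the p-values measure only the spread between these libraries, which may be technical. Cultures without nanoparticles and the levels of the mature microRNAs were not analysed here.

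Guidance cues steer growing axons and later shape dendrites, spines and synapses. Secreted class 3 semaphorins bind neuropilins, which signal through plexins, whereas membrane-bound semaphorins mostly bind plexins directly. Ephrins are held at the cell surface and signal through Eph receptor tyrosine kinases in neighbouring cells. Slits repel axons through Robo receptors, and netrins attract axons through DCC or repel them when UNC5 receptors take part. In the hippocampus these families guide mossy fibres and Schaffer collaterals and act on dendritic spines.

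Both microRNAs are shown because their seeds define the sites searched in the guidance genes. The mature sequences, from RefSeq, with the seed (bases 2 to 8) in capitals, are:
miR-409-5p: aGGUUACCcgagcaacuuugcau
miR-501-3p: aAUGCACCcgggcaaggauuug
The first is encoded at chr12:109743172-109743194 on the plus strand and the second at chrX:7241270-7241291 on the minus strand (GRCm38.p6). The 2 seeds differ.

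Sites were searched on the transcribed strand of 1 annotated 3′ UTR per gene, the longest (GENCODE M21, GRCm38). The letters searched were GGTAACCA for miR-409-5p, and the first or last 7 of these 8 letters alone. For miR-501-3p they were GGTGCATA, with the same shorter forms. A match is a description of the letters and not a measured binding site. Of the 64 tested guidance genes, 7 (10.9%) held a miR-409-5p match, against 9.85% of 14212 tested genes with an annotated 3′ UTR. These were Epha5, Robo2, Sema4g, Sema6a, Sema6c, Unc5c and Unc5d. A miR-501-3p match stood in 13 (20.3%) against 13.0% of all genes: Dcc, Epha3, Epha8, Nrp2, Plxna2, Sema3c, Sema3d, Sema3e, Sema4c, Sema5a, Slit1, Slit2 and Unc5c. The searched 3′ UTRs of the guidance genes were also longer. With a miR-501-3p match their median was 3492 bases, against 2560 over all genes, and without one 1363 against 1065. The part of this length in the shares was not tested. The following windows of 30 bases of mouse sequence, with the matched letters in capitals, are shown for the genes whose levels are described below and which hold an 8-base match, a match for each microRNA or a pair of matches, for the genes with a miR-409-5p match that fell, and for Epha5.
Unc5c, miR-409-5p match: ttatatcctggGGTAACCccgttggtatcc
Unc5c, miR-501-3p match: aaacgttagttGTGCATActccttgggacc
Epha5, miR-409-5p match: cacaatgtacaGGTAACCtgcaaagagagc
Sema4g, miR-409-5p match: cagccccgtgtGGTAACCccctggcaggag
Sema6c, miR-409-5p match: ccggccctctgGGTAACCgtgctcctgaaa
Sema3c, miR-501-3p match: atggtccttgtGGTGCATAaaaaatattta
Plxna2, miR-501-3p match: agaaaacactaGGTGCATAgaaaatggggt
Epha3, first miR-501-3p match: atgggtgggtgGGTGCATtttgctttgtaa
Epha3, second miR-501-3p match: attgtgagttaGGTGCATgattagaagcct
Sema3d, first miR-501-3p match: ctccagcagaaGTGCATAcaaatccttgtg
Sema3d, second miR-501-3p match: acatgtcagtgGGTGCATgcttcattcaaa
These windows lie at chr3:141829208-141829237 and chr3:141830216-141830245 (Unc5c, plus strand), chr5:84058838-84058867 (Epha5, minus), chr19:45002599-45002628 (Sema4g, plus), chr3:95173707-95173736 (Sema6c, plus), chr5:17727949-17727978 (Sema3c, plus), chr1:194815534-194815563 (Plxna2, plus), chr16:63545929-63545958 and chr16:63544803-63544832 (Epha3, minus), and chr5:12587112-12587141 and chr5:12587220-12587249 (Sema3d, plus).

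Across the 10 libraries the total counts ranged from 22254788 to 32096808, and the guidance genes took 0.606% to 0.612% of them in control, 0.577% to 0.594% under anti-miR-409-5p and 0.570% to 0.584% under anti-miR-501-3p. The 14 neuronal markers summed to 11872 to 11933 CPM (counts scaled to a common library total) in control, 12148 to 12520 under anti-miR-409-5p and 11891 to 12679 under anti-miR-501-3p and were thus present in every group. The 12 astrocyte markers summed to 4339 to 4417, 4737 to 4998 and 4547 to 4780 CPM in the same order, the oligodendrocyte lineage markers to 483 to 668, 445 to 549 and 375 to 527, and the mural and fibroblast markers to 475 to 611, 425 to 526 and 500.6 to 613. Much of the astrocyte sum was Slc1a2, at means of 1940, 2351 and 2300 CPM. The 12 astrocyte markers went both ways, with median log2 fold changes against control of -0.080 under anti-miR-409-5p and -0.15 under anti-miR-501-3p. Progenitor markers summed to 211 to 282, 239 to 283 and 195 to 260 CPM. Microglial markers summed to 24.1 to 29.3 CPM over all libraries with 8 of 12 under 1 CPM in every library, and endothelial markers to 15.0 to 23.2 CPM with 6 of 10 under 1 CPM. No marker was at 0 in all libraries. The part of cell makeup in the results below was not tested, and in bulk RNA fewer cells of a type and less RNA per cell cannot be told apart.

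The levels of the guidance genes in control are given as RPKM (CPM divided by exon length in kilobases), since genes can be compared only per length. Efnb3, a transmembrane ephrin, had the highest level at 105 ± 2.15 RPKM (SD, n = 2). Plexin A1 (Plxna1, 45.8 ± 0.83), Slit1 (42.7 ± 0.076), Epha4 (40.2 ± 1.62) and both neuropilins (34.2 ± 2.00 for Nrp2 and 33.0 ± 0.55 for Nrp1) followed. Unc5a (31.8 ± 0.67), Sema6b (30.8 ± 0.45) and Efna3 (29.6 ± 1.22) came next. The 2 neuropilins, Unc5a, Sema6b and Efna3 form an order in which neighbouring values lie close together, and no order among them was tested. Secreted semaphorins were low: Sema3e reached 6.76 ± 0.58 RPKM, Sema3c 2.71 ± 0.019, and the remaining tested ones 0.328 to 0.606. The netrins were low too, with 2.23 ± 0.17 RPKM for Ntn1 and 1.71 ± 0.063 for Ntn4, while their receptor Dcc stood at 6.55 ± 0.23. Below 0.1 RPKM were Epha1 and Epha2 among the tested genes, and Sema3g, Plxnb3 and Robo4.

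**Figure D1:**
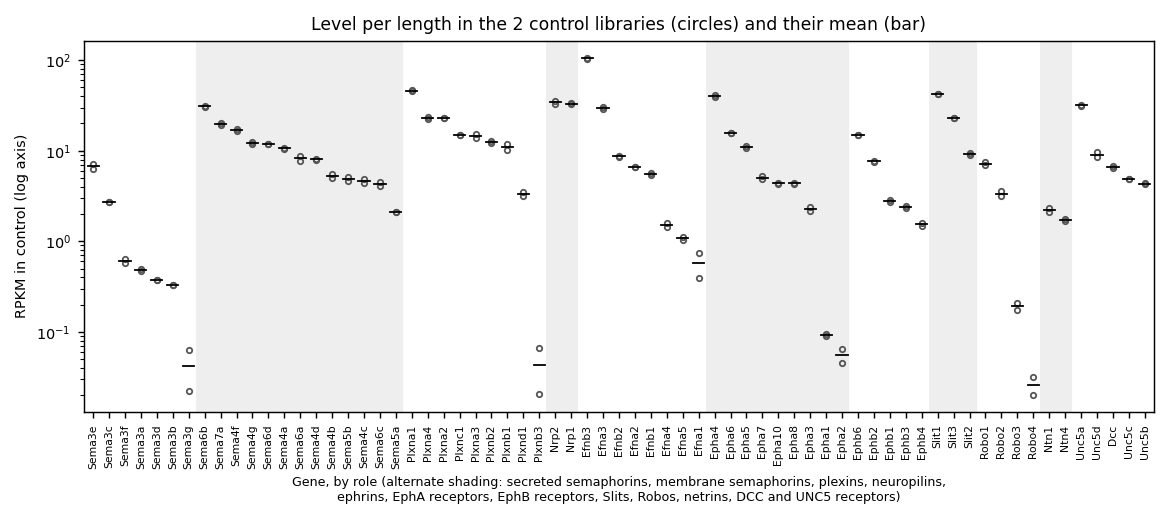
Levels of all 67 guidance genes in the 2 control libraries, in RPKM on a log axis, grouped by role. Circles are libraries and bars their means. Efnb3 stands highest and Robo4 lowest, and the controls lie close together except for the genes of few counts and Efna1.

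Anti-miR-409-5p gave 12 higher and 17 lower guidance genes of 64 against control (edgeR quasi-likelihood test, Benjamini-Hochberg adjusted p under 0.05). Of all tested genes 27.8% were called in this comparison, 15.6% higher and 12.2% lower. For anti-miR-501-3p the numbers were 15 higher and 17 lower, against 33.0% of all tested genes called, 17.6% higher and 15.4% lower. The changes were small: those called lay between -0.27 and 0.40 on the log2 scale for anti-miR-409-5p and between -0.33 and 0.58 for anti-miR-501-3p. The median log2 fold change over the 64 genes was -0.089 and -0.090, against -0.012 and -0.012 over all tested genes. Both comparisons use the same 2 control libraries, so they are not independent of each other.

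**Figure D2:**
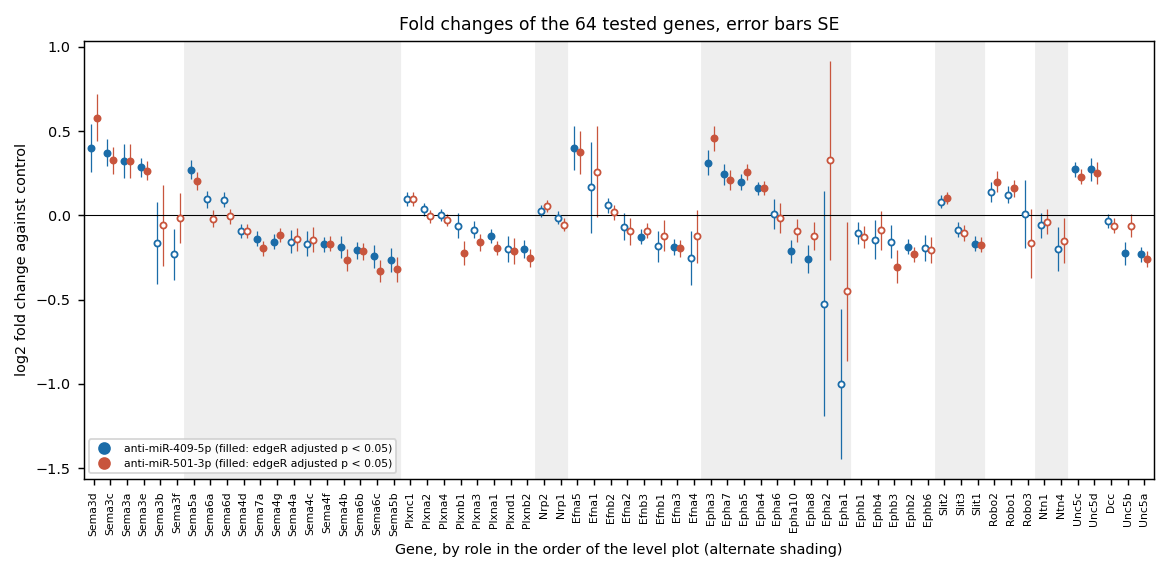
Log2 fold change of each of the 64 tested guidance genes against control, with its standard error, for anti-miR-409-5p (blue) and anti-miR-501-3p (red). Filled points have an edgeR adjusted p under 0.05. The called values lie between -0.33 and 0.58, and the widest error bars belong to Epha1 and Epha2, which have few counts.

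These counts rest on the controls. Without control replicate 1, 3 guidance genes were called for anti-miR-409-5p (against 7.48% of all genes called) and 5 for anti-miR-501-3p (against 10.3%), with the remaining control assumed to vary like the other groups. Without control replicate 2 the numbers were 19 (19.1% of all genes) and 26 (25.6%). With scaling by total counts, the split was 11 higher and 23 lower for anti-miR-409-5p, beside 2193 higher and 3209 lower over all tested genes (2634 and 2062 with TMM). For anti-miR-501-3p it was 12 higher and 22 lower, beside 2452 and 3779 over all tested genes (2974 and 2605 with TMM). In CPM, scaled by TMM as throughout, 17 genes had all 4 anti-miR-409-5p libraries above both controls and 24 had all below, against 24.1% and 24.0% of all tested genes. For anti-miR-501-3p these were 16 above and 23 below, against 24.3% and 25.6%.

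Gene coordinates in brackets are those of GRCm38 in GENCODE M21. The counts by family below stand beside 15.6% higher and 12.2% lower of all tested genes for anti-miR-409-5p. For anti-miR-501-3p these shares were 17.6% and 15.4%. Among the secreted semaphorins, 4 of the 6 tested genes rose under each anti-miR and none fell. They were Sema3a, Sema3c, Sema3d and Sema3e, which all lie on chromosome 5. Sema3e (chromosome 5, 14025276 to 14256689), a ligand that binds plexin D1 without a neuropilin, was the most abundant of them. It was measured at 58.9 and 66.6 CPM in control, 74.1, 71.5, 79.0 and 81.5 under anti-miR-409-5p and 74.7, 76.9, 75.5 and 74.5 under anti-miR-501-3p. All treated libraries exceeded both controls, with log2 fold changes of 0.28 (SE 0.056, edgeR adjusted p = 0.0015) and 0.26 (SE 0.056, adjusted p = 0.0019). Sema3c (chromosome 5, 17574281 to 17730268) signals through neuropilins. Its libraries gave 19.3 and 19.5 CPM in control, 22.3, 25.6, 26.4 and 25.9 under anti-miR-409-5p and 21.4, 25.4, 25.5 and 25.1 under anti-miR-501-3p. The groups did not overlap, and the log2 fold changes were 0.37 (SE 0.080, edgeR adjusted p = 0.0028) and 0.33 (SE 0.080, adjusted p = 0.0047).

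Sema3a (chromosome 5, 13125414 to 13602565), the best known repellent of the class, was scarce. Control held 6.58 and 6.78 CPM, anti-miR-409-5p 7.74, 8.80, 8.17 and 8.68 and anti-miR-501-3p 7.71, 7.74, 9.52 and 8.48. Every treated value lay above both controls, and the log2 fold change was 0.32 (SE 0.10, edgeR adjusted p = 0.023) for anti-miR-409-5p and 0.32 (SE 0.10, adjusted p = 0.020) for anti-miR-501-3p. Sema3d (chromosome 5, 12383385 to 12588948) had the largest called change of all guidance genes. From 3.24 and 3.21 CPM in control it went to 4.52, 3.91, 3.72 and 4.79 under anti-miR-409-5p and 5.21, 5.16, 3.94 and 4.88 under anti-miR-501-3p. The groups were apart again, with log2 fold changes of 0.40 (SE 0.14, edgeR adjusted p = 0.043) and 0.58 (SE 0.14, adjusted p = 0.0043). Sema3b and Sema3f, which lie close to each other on chromosome 9, did not pass the test in either comparison, and their libraries overlapped with control.

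Membrane-bound semaphorins went mostly the other way: of 13 tested genes 1 rose and 7 fell in each comparison against control. The families also differed in GC content of the transcripts, with medians of 42.3% for the secreted and 57.1% for the membrane-bound semaphorins. Of all tested genes under 45% GC, 46.8% were higher for anti-miR-409-5p and 51.8% for anti-miR-501-3p. At 55% GC or more, 37.3% and 45.4% were lower. The part of GC content in the family counts was not tested. Sema5a (chromosome 15, 32244810 to 32696341), which carries thrombospondin repeats and can attract or repel axons, was the membrane-bound semaphorin that rose. Its level was 39.1 and 39.4 CPM in control, 45.4, 46.9, 46.6 and 50.2 under anti-miR-409-5p and 42.7, 44.8, 48.4 and 45.02 under anti-miR-501-3p. No treated library reached down to the controls, and the log2 fold changes were 0.27 (SE 0.055, edgeR adjusted p = 0.0018) and 0.20 (SE 0.055, adjusted p = 0.0083). Its close relative Sema5b (chromosome 16, 35541145 to 35664732) fell. Sema5b had 36.4 and 32.5 CPM in control, 29.0, 31.3, 26.1 and 27.9 under anti-miR-409-5p and 30.3, 27.5, 26.0 and 26.3 under anti-miR-501-3p. All 4 libraries of each anti-miR were below both controls, at log2 fold changes of -0.27 (SE 0.074, edgeR adjusted p = 0.013) and -0.32 (SE 0.074, adjusted p = 0.0031).

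Of the class 6 semaphorins, which bind plexins of the A type, Sema6b and Sema6c fell while Sema6a and Sema6d were not called. Sema6b (chromosome 17, 56123085 to 56140343) is the most abundant membrane semaphorin per length here. The control libraries had 124 and 121 CPM, those of anti-miR-409-5p 109, 112, 102 and 100.4 and those of anti-miR-501-3p 109.9, 108, 104 and 100.2. Treated libraries were lower throughout, with log2 fold changes of -0.21 (SE 0.050, edgeR adjusted p = 0.0057) and -0.21 (SE 0.050, adjusted p = 0.0036). For Sema6c (chromosome 3, 95160457 to 95174024) the values were 26.7 and 24.4 CPM in control, 22.0, 22.1, 21.8 and 20.4 under anti-miR-409-5p and 21.6, 20.7, 19.1 and 19.7 under anti-miR-501-3p. This was the largest called fall among the guidance genes under anti-miR-501-3p, at -0.33 (SE 0.066, edgeR adjusted p = 0.0011), beside -0.24 (SE 0.066, adjusted p = 0.011) under anti-miR-409-5p. Sema6d had 126 and 126 CPM in control, 138, 129.8, 130.1 and 140.0 under anti-miR-409-5p and 128, 124, 121 and 129 under anti-miR-501-3p, and Sema6a had 68.1 and 76.0 CPM in control, 75.3, 76.6, 75.5 and 80.2 under anti-miR-409-5p and 69.2, 71.3, 74.0 and 70.1 under anti-miR-501-3p. Sema6a overlapped with control in both comparisons, whereas Sema6d lay above control in each anti-miR-409-5p library without passing the test (0.094, SE 0.043, edgeR adjusted p = 0.12).

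Sema7a (chromosome 9, 57940112 to 57962865), which is anchored by a lipid and binds integrins and plexin C1, fell. Its libraries read 66.1 and 64.2 CPM in control, 61.8, 58.7, 57.7 and 58.5 under anti-miR-409-5p and 58.9, 56.7, 57.1 and 55.2 under anti-miR-501-3p. The treated groups were below control without overlap, at -0.14 (SE 0.044, edgeR adjusted p = 0.027) and -0.19 (SE 0.044, adjusted p = 0.0030) on the log2 scale. Sema4b (chromosome 7, 80186841 to 80226527), a class 4 semaphorin, gave 31.2 and 28.4 CPM in control, 27.8, 25.2, 26.0 and 25.8 under anti-miR-409-5p and 27.1, 24.8, 23.5 and 23.8 under anti-miR-501-3p. It too fell without overlap, by log2 values of -0.19 (SE 0.066, edgeR adjusted p = 0.042) and -0.26 (SE 0.066, adjusted p = 0.0055). Sema4f and Sema4g also fell in both comparisons, with log2 fold changes of -0.17 and -0.17 for Sema4f and -0.16 and -0.12 for Sema4g. Sema4a, Sema4c and Sema4d were not called, at log2 fold changes of -0.17 to -0.092.

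Plexins are the signalling receptors of the semaphorins. Of 8 tested, 2 fell under anti-miR-409-5p and 5 under anti-miR-501-3p, and none rose. Plxna1 (chromosome 6, 89316314 to 89362620) was the most abundant. It had 420.4 and 409.8 CPM in control, 394, 382, 367 and 380.1 under anti-miR-409-5p and 385, 361, 359 and 348 under anti-miR-501-3p. Both treated groups lay below control, at log2 fold changes of -0.13 (SE 0.041, edgeR adjusted p = 0.031) and -0.19 (SE 0.041, adjusted p = 0.0018). A gene on the opposite strand, Gm26811, covers 10.7% of the exon bases of Plxna1, and reads of the 2 cannot be told apart without strand. Plxnb2 (chromosome 15, 89155549 to 89180788), a receptor for class 4 semaphorins, went from 100. and 93.9 CPM in control to 88.5, 85.5, 78.8 and 84.1 under anti-miR-409-5p and 87.9, 80.8, 77.1 and 79.7 under anti-miR-501-3p. Its log2 fold changes were -0.20 (SE 0.054, edgeR adjusted p = 0.010) and -0.25 (SE 0.054, adjusted p = 0.0018), with no overlap.

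Plxnb1 (chromosome 9, 109095389 to 109119917), the receptor of Sema4d, fell under anti-miR-501-3p. The values were 114 and 98.2 CPM in control, 112, 99.1, 94.2 and 102 under anti-miR-409-5p and 97.2, 93.2, 88.2 and 84.6 under anti-miR-501-3p. The controls differed from each other by more than the gap to the nearest anti-miR-501-3p library, and the anti-miR-409-5p libraries overlapped with control. The log2 fold change was -0.22 (SE 0.072, edgeR adjusted p = 0.028) for anti-miR-501-3p and -0.061 (SE 0.072, adjusted p = 0.58) for anti-miR-409-5p. Plxnd1 (chromosome 6, 115954811 to 115995005), the receptor of Sema3e, had 23.3 and 25.8 CPM in control, 21.8, 21.7, 20.4 and 21.5 under anti-miR-409-5p and 23.6, 22.1, 20.4 and 18.7 under anti-miR-501-3p. It passed the test for anti-miR-501-3p, although 1 library lay between the controls (-0.21, SE 0.078, edgeR adjusted p = 0.046), and missed it for anti-miR-409-5p (-0.20, SE 0.078, adjusted p = 0.062). Plxna3 fell under anti-miR-501-3p (-0.16, SE 0.051, edgeR adjusted p = 0.022). Plxna4, a partner of the neuropilins, overlapped with control at 319.7 and 333 CPM in control, 326, 321, 324 and 335 under anti-miR-409-5p and 330.3, 319, 316 and 315 under anti-miR-501-3p. Neither Plxna2, which holds an 8-base miR-501-3p match, nor Plxnc1 was called.

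The neuropilins, the binding receptors of secreted semaphorins, were not called against control. Nrp1 (chromosome 8, 128358604 to 128503363) had 319 and 326 CPM in control, 322, 315, 317 and 324 under anti-miR-409-5p and 294, 320.1, 314 and 314 under anti-miR-501-3p. Nrp2 (chromosome 1, 62703285 to 62818695) had 389 and 422 CPM in control, 404, 417, 422 and 408.9 under anti-miR-409-5p and 415, 425, 426 and 419 under anti-miR-501-3p. The groups overlapped for both genes, and the log2 fold changes lay between -0.055 and 0.055.

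Of the 8 ephrins, 1 rose and 2 fell under anti-miR-409-5p, and 1 rose and 1 fell under anti-miR-501-3p. Efna5 (chromosome 17, 62604184 to 62881317), a lipid-anchored ligand known from retinal and hippocampal topographic maps, rose. At a low level, it read 4.198 and 4.51 CPM in control, 4.71, 5.75, 6.63 and 5.99 under anti-miR-409-5p and 5.21, 5.74, 6.31 and 5.36 under anti-miR-501-3p. All treated libraries were above control, at log2 fold changes of 0.40 (SE 0.13, edgeR adjusted p = 0.027) and 0.37 (SE 0.13, adjusted p = 0.032). Efna3 (chromosome 3, 89313899 to 89322965), of the same lipid-anchored class, fell. It was at 74.2 and 70.0 CPM in control, 66.0, 66.6, 60.0 and 60.2 under anti-miR-409-5p and 63.9, 63.0, 63.3 and 61.7 under anti-miR-501-3p. The log2 fold changes were -0.19 (SE 0.050, edgeR adjusted p = 0.010) and -0.19 (SE 0.050, adjusted p = 0.0064), and 14.1% of its exon bases are shared with Gm15998 on the opposite strand. Efnb3 (chromosome 11, 69554092 to 69560205), a ligand of Epha4 and the most abundant guidance gene, had 330.1 and 339.8 CPM in control, 309, 319, 305 and 295 under anti-miR-409-5p and 314, 328, 325 and 292 under anti-miR-501-3p. Both treated groups lay below both controls, but only the anti-miR-409-5p value passed the test (-0.13, SE 0.045, edgeR adjusted p = 0.046, against -0.090, SE 0.045, adjusted p = 0.14), and their difference was not called (-0.036, SE 0.037, adjusted p = 0.92). Efna1, Efna2, Efna4, Efnb1 and Efnb2 were not called in either comparison.

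Of 9 EphA receptors 4 rose under each anti-miR, Epha3, Epha4, Epha5 and Epha7, and 2 fell under anti-miR-409-5p. Epha3 (chromosome 16, 63543534 to 63864175) is a receptor of lipid-anchored ephrins. Control gave 18.9 and 20.8 CPM, anti-miR-409-5p 23.2, 24.4, 24.5 and 26.5 and anti-miR-501-3p 24.9, 27.9, 26.7 and 29.5. With no overlap, its log2 fold changes were 0.31 (SE 0.074, edgeR adjusted p = 0.0051) and 0.46 (SE 0.074, adjusted p = 0.00022). Epha4 (chromosome 1, 77367185 to 77515088), which binds both ephrin classes and limits spine growth on hippocampal neurons, was the most abundant Eph receptor. It measured 314 and 333 CPM in control, 353, 362, 361 and 369 under anti-miR-409-5p and 344, 374, 366 and 363 under anti-miR-501-3p. The rise was small and without overlap, at 0.16 (SE 0.040, edgeR adjusted p = 0.0073) and 0.16 (SE 0.040, adjusted p = 0.0053).

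Epha5 (chromosome 5, 84054761 to 84417382), a hippocampal receptor of Efna5, had 178 and 189 CPM in control, 198, 209, 214 and 220.1 under anti-miR-409-5p and 207, 224, 224 and 223 under anti-miR-501-3p. All treated libraries stood above control, with log2 fold changes of 0.20 (SE 0.047, edgeR adjusted p = 0.0055) and 0.26 (SE 0.047, adjusted p = 0.00060). Epha7 (chromosome 4, 28813131 to 28967499), another receptor of lipid-anchored ephrins, gave 48.1 and 51.6 CPM in control, 56.8, 57.0, 59.0 and 63.1 under anti-miR-409-5p and 52.5, 60.1, 56.6 and 61.3 under anti-miR-501-3p. It rose by 0.24 (SE 0.061, edgeR adjusted p = 0.0075) and 0.21 (SE 0.061, adjusted p = 0.014) on the log2 scale. Epha6, the second most abundant of the class per length, was not called, and its libraries spread widely: 84.0 and 83.3 CPM in control, 85.5, 80.3, 79.3 and 90.9 under anti-miR-409-5p and 78.3, 82.6, 73.4 and 96.3 under anti-miR-501-3p.

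Epha8 (chromosome 4, 136929419 to 136956816) and Epha10 (chromosome 4, 124880899 to 124917800), a receptor without an active kinase, passed the test as lower for anti-miR-409-5p. Epha8 had 20.2 and 20.7 CPM in control, 18.3, 17.6, 17.1 and 15.6 under anti-miR-409-5p and 18.4, 18.1, 17.1 and 21.5 under anti-miR-501-3p. Epha10 had 30.8 and 32.1 CPM in control, 27.1, 29.1, 26.5 and 25.7 under anti-miR-409-5p and 31.7, 29.7, 30.3 and 26.4 under anti-miR-501-3p. For both genes the anti-miR-409-5p libraries lay below control and 1 or more anti-miR-501-3p libraries lay among the controls or above them. The anti-miR-409-5p log2 fold changes were -0.26 (SE 0.084, edgeR adjusted p = 0.029) for Epha8 and -0.21 (SE 0.068, adjusted p = 0.027) for Epha10. Their differences between the anti-miRs, -0.13 (SE 0.070, edgeR adjusted p = 0.87) and -0.12 (SE 0.056, adjusted p = 0.85), were not called. Epha1 and Epha2 had under 1 CPM in every library.

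EphB receptors, which bind transmembrane ephrins and act in spine formation, gave no riser among 5. Ephb2 (chromosome 4, 136647539 to 136835988) fell in both comparisons: it had 97.4 and 95.0 CPM in control, 87.7, 82.8, 82.3 and 85.5 under anti-miR-409-5p and 84.8, 83.3, 77.7 and 81.8 under anti-miR-501-3p. The treated groups were clear of control, at -0.19 (SE 0.044, edgeR adjusted p = 0.0052) and -0.23 (SE 0.044, adjusted p = 0.00082) on the log2 scale. Ephb3 (chromosome 16, 21204755 to 21223305) fell under anti-miR-501-3p, from 16.5 and 15.6 CPM in control to 14.7, 12.7, 12.8 and 11.6, with 16.7, 14.5, 13.0 and 13.3 under anti-miR-409-5p. Its log2 fold change was -0.31 (SE 0.098, edgeR adjusted p = 0.023), and the anti-miR-409-5p libraries overlapped with control (-0.16, SE 0.097, adjusted p = 0.25). Ephb6 (chromosome 6, 41605482 to 41620509), which lacks kinase activity, had 56.7 and 55.8 CPM in control, 51.8, 51.8, 47.9 and 45.04 under anti-miR-409-5p and 52.6, 48.7, 51.8 and 42.3 under anti-miR-501-3p. All treated libraries were below control, but neither test passed (edgeR adjusted p = 0.070 and 0.051).

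Slit1 (chromosome 19, 41600257 to 41743665), the most abundant Slit, fell. Its values were 253 and 253 CPM in control, 225, 229, 227 and 219 under anti-miR-409-5p and 232, 234, 223 and 208 under anti-miR-501-3p. The log2 fold changes were -0.17 (SE 0.044, edgeR adjusted p = 0.0088) and -0.17 (SE 0.044, adjusted p = 0.0057), with no overlap. Slit3 (chromosome 11, 35121224 to 35708507) was not called, at 141 and 141 CPM in control, 133, 128, 132 and 137 under anti-miR-409-5p and 141, 125, 128 and 129 under anti-miR-501-3p. Slit2 passed as higher for anti-miR-501-3p alone (0.10, SE 0.038, edgeR adjusted p = 0.047, beside 0.082, SE 0.038, adjusted p = 0.12, for anti-miR-409-5p), and its difference between the anti-miRs was -0.021 (SE 0.031, adjusted p = 0.94). The Robo receptors of the Slits gave 2 risers under anti-miR-501-3p and none under anti-miR-409-5p. Robo1 (chromosome 16, 72308306 to 73046095) had 114 and 122 CPM in control, 125, 123, 129 and 137 under anti-miR-409-5p and 128, 132, 128 and 140.4 under anti-miR-501-3p. Robo2 (chromosome 16, 73891839 to 74411825) had 53.1 and 60.5 CPM in control, 60.3, 61.7, 59.1 and 68.3 under anti-miR-409-5p and 63.2, 65.3, 64.8 and 67.7 under anti-miR-501-3p. Only for Robo2 under anti-miR-409-5p did a treated group overlap with control. The log2 fold changes under anti-miR-501-3p were 0.16 (SE 0.051, edgeR adjusted p = 0.022) for Robo1 and 0.20 (SE 0.060, adjusted p = 0.016) for Robo2. Under anti-miR-409-5p they were 0.12 and 0.14 (edgeR adjusted p = 0.082 and 0.10).

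Netrins were scarce and not called. Ntn1 (chromosome 11, 68209364 to 68400823) had 14.7 and 13.2 CPM in control, 14.0, 13.7, 13.0 and 12.9 under anti-miR-409-5p and 14.4, 13.6, 13.2 and 13.2 under anti-miR-501-3p, and Ntn4 (chromosome 10, 93640681 to 93747207) had 6.58 and 6.25, then 5.42, 5.34, 5.13 and 6.34, then 7.09, 5.13, 4.82 and 6.03. Both overlapped with control. The attractive netrin receptor Dcc (chromosome 18, 71253634 to 72351069) overlapped as well, at 84.2 and 88.4 CPM in control, 84.5, 85.3, 82.3 and 85.3 under anti-miR-409-5p and 80.9, 86.7, 81.5 and 81.7 under anti-miR-501-3p.

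The UNC5 receptors, which mediate repulsion by netrins, split. Unc5c (chromosome 3, 141465216 to 141834924) rose from 92.5 and 94.1 CPM in control to 112, 110.3, 109 and 119 under anti-miR-409-5p and 109, 115, 108 and 107 under anti-miR-501-3p. Its log2 fold changes were 0.27 (SE 0.045, edgeR adjusted p = 0.00042) and 0.23 (SE 0.045, adjusted p = 0.0010). This gene holds a match for each microRNA, but it was not called in the fit with the GC and length offset given below. Matches also stand in genes that fell in both comparisons, among them Sema6c and Sema4g (miR-409-5p) and Slit1 (miR-501-3p). The numbers of higher and lower genes with a match are given further below. Unc5d (chromosome 8, 28646717 to 29219636) rose from 79.3 and 88.3 CPM in control to 93.9, 101, 99.8 and 109.9 under anti-miR-409-5p and 92.7, 105, 105 and 95.7 under anti-miR-501-3p. Here the log2 fold changes were 0.27 (SE 0.067, edgeR adjusted p = 0.0080) and 0.25 (SE 0.067, adjusted p = 0.0098), again without overlap.

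Unc5a (chromosome 13, 54949411 to 55006018), the most abundant UNC5 receptor, fell. Control libraries held 134 and 130.4 CPM, anti-miR-409-5p libraries 117, 116, 109 and 108 and anti-miR-501-3p libraries 117, 108, 112 and 105. Both groups stayed below control, at log2 fold changes of -0.23 (SE 0.047, edgeR adjusted p = 0.0017) and -0.26 (SE 0.047, adjusted p = 0.00052). For Unc5b (chromosome 10, 60762593 to 60831581) the libraries gave 26.5 and 27.3 CPM in control, 25.2, 22.1, 22.7 and 22.0 under anti-miR-409-5p and 27.6, 26.4, 24.5 and 24.5 under anti-miR-501-3p. Unc5b fell under anti-miR-409-5p (-0.23, SE 0.068, edgeR adjusted p = 0.020) and overlapped with control under anti-miR-501-3p (-0.061, SE 0.067, adjusted p = 0.53).

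**Figure D3:**
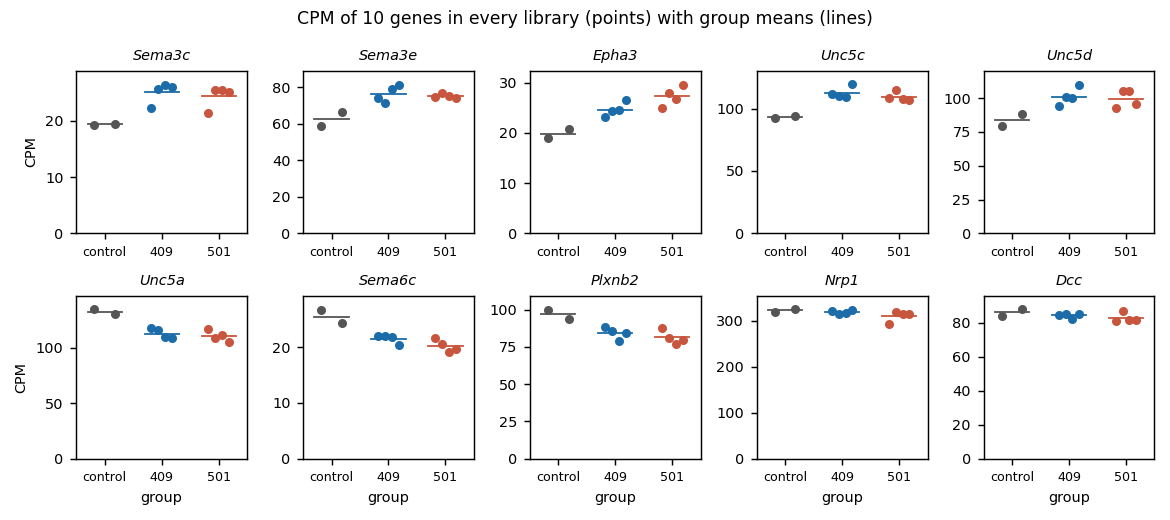
Level in CPM (TMM-scaled) of 10 guidance genes in each library, as points, with group means as lines, for control and each anti-miR. Sema3c, Sema3e, Epha3, Unc5c and Unc5d lie above control in every treated library, Unc5a, Sema6c and Plxnb2 below, and Nrp1 and Dcc overlap with it.

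The risers and the fallers differed in base composition. The 12 genes that rose under anti-miR-409-5p had transcripts of 39.2% to 45.9% GC, and the 17 that fell had 55.3% to 63.5%. Under anti-miR-501-3p the ranges were 39.2% to 49.5% and 55.05% to 63.5%. The same difference stood within families: among UNC5 receptors, Unc5c (44.4% GC) and Unc5d (44.3%) rose and Unc5a (62.7%) fell, and Sema5a (45.9%) rose while Sema5b (60.2%) fell. Across the 64 guidance genes the Spearman rank correlation of log2 fold change with GC content was -0.81 for anti-miR-409-5p and -0.73 for anti-miR-501-3p, and across 16839 tested genes -0.69 and -0.70. Transcript length differed too. Risers had a median of 6537 bases against 4646 for fallers under anti-miR-409-5p, and 6861 against 4748 under anti-miR-501-3p. The Spearman correlation with length was 0.49 and 0.29 across the guidance genes and 0.24 and 0.22 across all tested genes. These correlations are across genes, which share the same libraries and are not independent replicates.

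The trend on GC content ran through the libraries as a whole. Relative to the mean of all libraries, log2 CPM changed per 10 percentage points of GC by 0.20 to 0.26 in control, by -0.10 to 0.037 in the anti-miR-409-5p libraries and by -0.13 to 0.0085 in the anti-miR-501-3p libraries. Below 45% GC, 10 of 13 guidance genes were higher under anti-miR-409-5p, against 46.8% of 4460 tested genes in this range, and 11 of 13 under anti-miR-501-3p, against 51.8%. At 55% GC or more, 17 of 35 guidance genes were lower in each comparison, against 37.3% and 45.4% of 3626 tested genes. Between 50% and 55% none of 7 was called, where 0.647% of 4326 tested genes were higher and 12.6% lower for anti-miR-409-5p and 1.16% and 18.01% for anti-miR-501-3p.

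**Figure D4:**
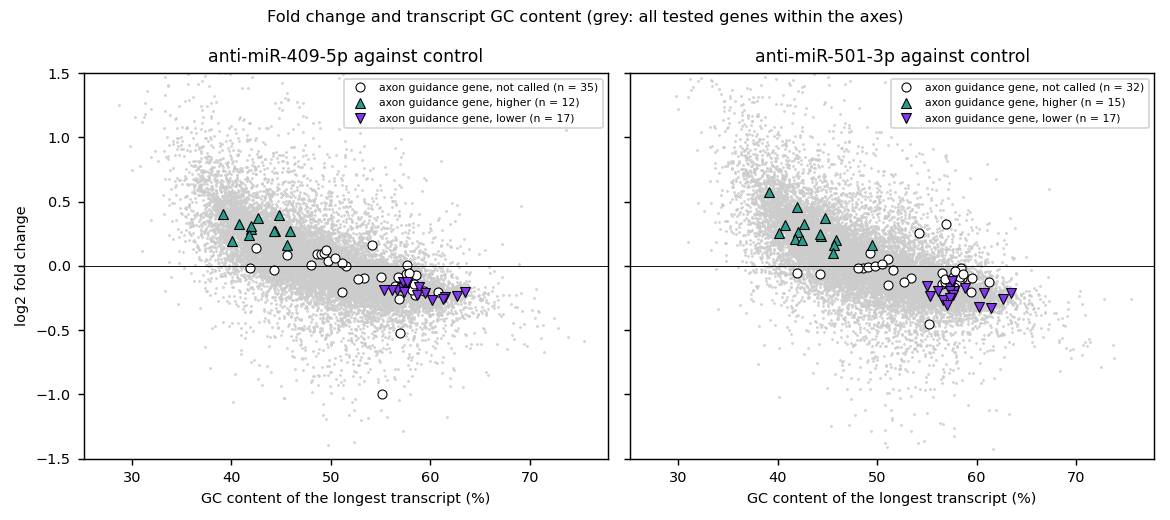
Log2 fold change against transcript GC content in percent, for each anti-miR against control. Grey points are tested genes within the axes, and the marked symbols are the 64 guidance genes by call. Higher genes sit at 39.2% to 49.5% GC and lower genes at 55.05% to 63.5%, along the band of all genes.

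With the trend on GC content and transcript length removed as an offset in the same test, few guidance genes were called. For anti-miR-409-5p there were 3, all lower, against 7.45% of all tested genes called (3.99% higher and 3.46% lower). For anti-miR-501-3p there were 2 higher and 4 lower, against 10.1% (5.51% higher and 4.63% lower). Among the genes that were higher without the offset, Epha3 (0.19, edgeR adjusted p = 0.042) and Robo1 (0.15, adjusted p = 0.018) stayed higher under anti-miR-501-3p. Ephb2 stayed lower (-0.13, edgeR adjusted p = 0.018). Epha5 turned from higher to lower, at -0.16 (edgeR adjusted p = 0.0016) and -0.13 (adjusted p = 0.0061). Nrp1 and Dcc, which had not been called, came out lower: Nrp1 at -0.24 (edgeR adjusted p = 5.1e-05) and -0.31 (adjusted p = 1.5e-06), and Dcc at -0.22 (adjusted p = 0.0011) and -0.25 (adjusted p = 0.00020). Both have few GC bases (41.9% and 44.3%) and CPM values that overlap with control, as given above. The median over the 64 genes became -0.016 and 0.0039. The secreted semaphorins, Efna5, Unc5c, Unc5d, Unc5a and the membrane semaphorins were not called in this fit. Whether the offset also takes away differences that belong to the cells was not tested.

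**Figure D5:**
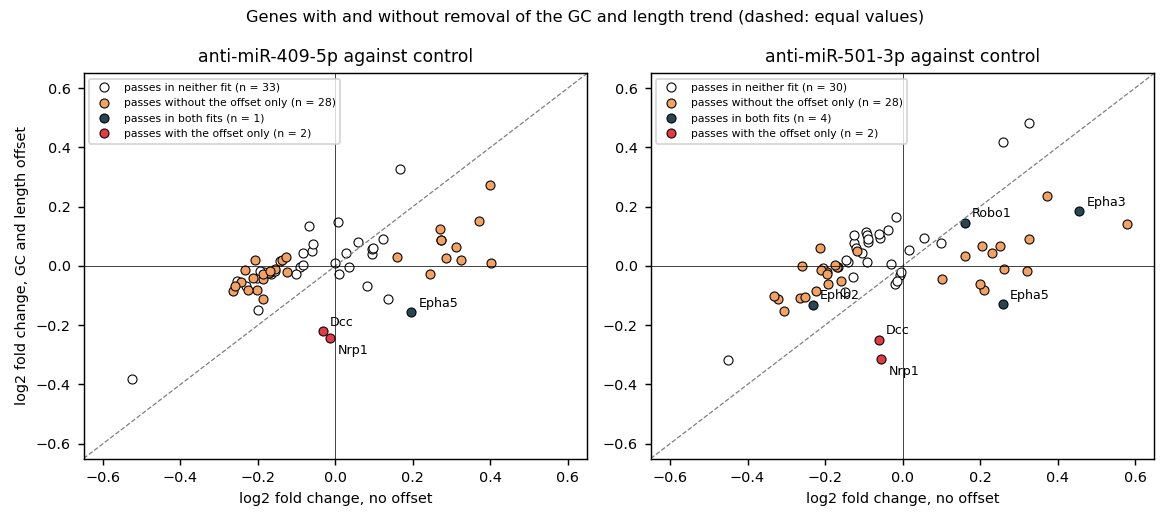
Log2 fold change of the guidance genes without (x axis) and with (y axis) the GC and length offset, for each anti-miR against control. The dashed line marks equal values, and colours show in which fit a gene has an edgeR adjusted p under 0.05. Epha1 lies outside the axes in the panel of anti-miR-409-5p.

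With 1 surrogate variable estimated from the counts added to the fit, Unc5c was called for anti-miR-409-5p, and Sema3d and Unc5c were called for anti-miR-501-3p, all as higher. Of all tested genes 6.50% and 4.80% were called in that fit.

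The 7 genes with a miR-409-5p match had a median log2 fold change of 0.14 under anti-miR-409-5p, against -0.10 for the 57 without, and 3 of the 7 were higher and 2 lower. Over all tested genes with an annotated 3′ UTR the medians were 0.069 and -0.033. Under anti-miR-501-3p, the 13 genes with a miR-501-3p match had a median of 0.10, against -0.095 for the 51 without, and 7 were higher and 1 lower. The medians over all genes were 0.080 and -0.040, and of the 1851 with a match 619 were higher and 185 lower. Genes with a match also had a lower GC content, with medians of 44.4% against 56.5% for miR-409-5p and 45.5% against 56.6% for miR-501-3p among the guidance genes. Under the inhibitor of the other microRNA, the 13 genes with a miR-501-3p match had a median of 0.082 under anti-miR-409-5p, with 6 higher and 2 lower. Over all 1851 genes with this match the median was 0.075, with 576 higher and 133 lower. The 7 guidance genes with a miR-409-5p match had a median of 0.20 under anti-miR-501-3p, with 4 higher and 2 lower. For all 1400 genes with that match it was 0.072, with 464 higher and 133 lower. The part of the matches in these values was not tested.

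Between the anti-miRs no guidance gene and no other tested gene passed the edgeR test of the 3-group fit, so 0% of tested genes were called in it. At an unadjusted p under 0.05 there were 6 of 64 guidance genes and 992 of all tested genes. DESeq2 called 0 guidance genes and 3 genes in all (0.0178%), and with the offset edgeR called 0 guidance genes and 0.00592% of all genes. The differences of the guidance genes ranged from -0.85 to 0.17 on the log2 scale (anti-miR-409-5p minus anti-miR-501-3p), with a median standard error of 0.052, and the extreme was Epha2, a gene of few counts. The smallest p-values belonged to Unc5b (-0.16, SE 0.056, edgeR adjusted p = 0.81), Sema6d (0.10, SE 0.035, adjusted p = 0.83) and Sema6a (0.11, SE 0.040, adjusted p = 0.83). A p that misses the threshold does not show that the inhibitors act alike.

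The RNA of genes that act with or downstream of the guidance genes was examined from 4 lists, of which 96 genes were tested. These partners include secreted and surface molecules as well as proteins that signal inside the cell. Against control, 21 of them were higher and 18 lower for anti-miR-409-5p, with 19 higher and 30 lower for anti-miR-501-3p, beside 27.8% and 33.0% of all tested genes called. Scaling by total counts turned the balance for anti-miR-409-5p to 18 higher and 31 lower, and gave 16 and 41 for anti-miR-501-3p. All tested genes then gave 2193 higher and 3209 lower, and 2452 and 3779. For anti-miR-501-3p without a filter on low counts, 23 partners were higher and 23 lower. Of all 32177 genes in that fit, 3002 were higher and 2427 lower. In the semaphorin and plexin list of 26 genes, 3 were higher and 7 lower, then 2 and 11. The kinase Gsk3b rose (0.30, SE 0.048, edgeR adjusted p = 0.00030, and 0.33, SE 0.048, adjusted p = 9.6e-05), as did the adhesion molecule Chl1 (0.41 and 0.40), whereas the collapsin response mediator Crmp1 (-0.17 and -0.16) and Rap1gap, which switches off Rap1 (-0.20 and -0.21), fell. In the ephrin and Eph list of 27 genes, 9 were higher and 2 lower, then 8 and 6. Adam10, a protease that cuts ephrins (0.32 and 0.32), and the kinase Pak3 (0.50 and 0.55) rose, and the kinase Src (-0.18 and -0.26) and the exchange factor Ngef (-0.15 and -0.17) fell.

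In the Slit and Robo list of 19 genes, 4 were higher and 7 lower, then 4 and 8. The actin-binding protein Pfn2 rose by 0.31 (SE 0.037, edgeR adjusted p = 3.6e-05) and 0.36 (SE 0.037, adjusted p = 5.5e-06), and the exchange factor Sos1 by 0.37 and 0.38. The heparan sulfate carriers Gpc1 (-0.18 and -0.24) and Sdc3 (-0.16 and -0.17) fell, as did Evl (-0.19 and -0.15). In the netrin list of 24 tested genes, 5 were higher and 2 lower, then 5 and 5. The GTPase Cdc42 (0.26 and 0.33) and the actin regulator Wasl (0.41 and 0.44) rose, and Rgma, a ligand of the DCC relative neogenin, fell (-0.24 and -0.33).

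With the GC and length offset, 8 of the 96 partners were called for anti-miR-409-5p (4 higher and 4 lower) and 9 for anti-miR-501-3p (4 higher and 5 lower), beside 7.45% and 10.1% of all tested genes. Pfn2 (0.41 and 0.46, edgeR adjusted p = 4.4e-06 and 4.6e-07), Gsk3b (0.17 and 0.20, adjusted p = 0.0015 and 0.00018) and Wasl (0.24 and 0.26, adjusted p = 0.0032 and 0.00099) were higher in both comparisons in this fit too. Without control replicate 1, 15 partners were called in each comparison, beside 7.48% and 10.3% of all tested genes.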

How the data were processed

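Per the labels' protocols, polyadenylated RNA was made into libraries with the TruSeq RNA Library Prep Kit v2, which does not mark strand, and read as single 50 bp ends on a HiSeq2000. The submitters' processing notes name the build mm10, the aligner STAR 2.5.2b, featureCounts with Subread 1.5.1, and FastQC 0.11.5. The annotation and the handling of reads that map to several places are not given in the sources used here. The authors deposited raw counts per gene, 1 table per library, with no normalization: the values are whole and the library totals unequal. Comparison tables of the authors were not used.

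Gene identifiers were matched to GENCODE M21 (GRCm38). Guidance genes, gene lists and alternatives were chosen with earlier results of these data known. Counts were filtered with filterByExpr and scaled by TMM. All 10 libraries entered 1 edgeR 4.0.16 quasi-likelihood fit (robust) of 3 groups without covariates in R 4.3.3, two-sided, with Benjamini-Hochberg adjustment over 16884 genes and a threshold of 0.05. CPM carry TMM scaling, and RPKM use the union of exons. Standard errors are those of the log2 fold change. The offset was a spline (5 degrees of freedom each) of GC content and length of the longest transcript, fitted per library. Other alternatives were DESeq2 1.42.0, 1 surrogate variable (sva 3.50.0), other scalings and filters, a replicate block and leaving out each library.

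Genes named with values in every library were, by rule, the called genes with up to 10 of the largest changes per direction and comparison (mean log2 CPM of at least 0), the 2 most abundant per length of each role, and the 3 of smallest p between the anti-miRs. Dcc was added after its values were seen. Values of other guidance genes are given in part. Partners named are among the called genes of small p in each list and direction, and not every such gene is named. On simulated counts for anti-miR-409-5p against control (16884 genes), edgeR recovered 60 of 100 genes changed by 1.25-fold and 99 of 100 changed by 1.5-fold, with 9 false calls. With the offset it recovered 61 and 99, with 10 false calls. The simulated counts had the same spread for every gene and no trend on GC content. Only genes above a floor of counts were changed. The real libraries carry such a trend, so these numbers do not give the rate of false or missed calls in them. Libraries of a group differed beyond sampling noise in all 13 pairs (chi-square per gene 1.66 to 12.5). Of the guidance genes, 16 share exon bases with another gene, 13 of them with a gene on the opposite strand (0.617% to 14.1% of exon bases).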

Additional observations from a re-analysis of the deposited data

Results flagged for a closer look

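In 7 of 128 sets of 4 libraries (64 guidance genes in each anti-miR group), 1 library stood apart from the other three by Dixon's criterion for 4 values. Chance flags about 1 set in 20. The ratio of gap to range was 0.905 for Sema3c under anti-miR-501-3p, where replicate 1 was lowest, 0.917 for Epha5 under anti-miR-501-3p, where replicate 1 was also lowest, and 0.854 for Dcc under anti-miR-501-3p, where replicate 2 was highest. It was 0.970 for Epha1 under anti-miR-501-3p, with replicate 4 lowest at few counts. Under anti-miR-409-5p it was 0.939 for Sema4c and 0.979 for Sema4d, both with replicate 1 highest, and 0.857 for Sema6c, with replicate 4 lowest. The replicate 1 values of Sema3c and Epha5 lay closer to control than those of the other anti-miR-501-3p libraries, and both were still above control.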

How the results depend on the processing

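The offset for GC content and transcript length, the surrogate variable and control replicate 1 moved the counts of called genes. For anti-miR-409-5p against control, 29 guidance genes were called in the reported fit, 3 with the offset, 4 with the offset and the replicate block together and 1 with a surrogate variable. For anti-miR-501-3p the counts were 32, 6, 7 and 2. The shares of all tested genes called, in the same order, were 27.8%, 7.45%, 7.68% and 6.50% for anti-miR-409-5p. For anti-miR-501-3p these shares were 33.0%, 10.1%, 10.9% and 4.80%. Of the 96 pathway partners, 39 were called for anti-miR-409-5p, then 8, 12 and 11, and 49 for anti-miR-501-3p, then 9, 10 and 7. Leaving out 1 library at a time gave 3 to 31 guidance genes for anti-miR-409-5p and 5 to 34 for anti-miR-501-3p, and 15 to 41 and 15 to 56 partners. The fits that left out 1 anti-miR library called 20.3% to 30.3% of all tested genes for anti-miR-409-5p and 26.9% to 36.1% for anti-miR-501-3p. The lowest counts of guidance genes and partners were those without control replicate 1. With control replicate 2 left out, 19 and 26 guidance genes were called. Either leaves a single control, which is assumed to vary like the other groups. Between the anti-miRs the count of 0 became 1 without a filter on low counts (Plxnb1), 2 with the replicate block (Sema6d and Plxnb1), and 2 with block and offset (Unc5b and Plxnb1). Over all tested genes these fits called 42 (0.131%), 252 (1.49%) and 189 (1.12%) where the reported fit called 0. The count of guidance genes stayed 0 in each fit that left out a library. DESeq2, DESeq2 size factors, upper-quartile and total count scaling, both other count filters and the fit of only the groups compared gave 26 to 34 guidance genes for anti-miR-409-5p and 30 to 34 for anti-miR-501-3p. Over all tested genes these fits called 14.4% to 36.0% for anti-miR-409-5p and 16.9% to 42.2% for anti-miR-501-3p. Both lowest shares came without a filter on low counts and both highest with the stricter filter.

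The replicate numbers carry no stated meaning. Over the 8 pairs of libraries from different groups with the same number, the correlation of their deviations from the group means ran from 0.028 to 0.17, with 3 of the 8 over 0.1, and over 24 other pairs from -0.16 to 0.12. In 14 of 16 checks a library correlated best with its own number, which is a hint from the data alone. These checks are not independent of each other, because each same-number pair enters from each of its libraries. The deviations of the control libraries from their mean also have equal size and opposite sign, so their correlations mirror each other. How many such checks would be reached without pairing was not tested. With the number as a block, 31 and 32 guidance genes were called against control, beside 28.9% and 33.9% of all tested genes.

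With the offset, 15 of the 64 guidance genes changed sign for anti-miR-409-5p and 25 for anti-miR-501-3p, 5 and 9 of which had been called without it. The 9 include Sema4g and Slit2, which the rule for named genes did not take. Among the genes it took, those that changed sign with the offset, and with the offset and the replicate block, were as follows for anti-miR-409-5p: Efnb3 (0.031 and 0.031), Epha5 (-0.16 and -0.14), Epha7 (-0.027 and -0.030), Robo2 (-0.11 and -0.10), Sema6b (0.020 and 0.022), Sema7a (0.018 and 0.0098) and Slit3 (0.045 and 0.020). With block and offset Ephb6 changed sign too (0.012). For anti-miR-501-3p they were Efnb3 (0.082 and 0.082), Epha5 (-0.13 and -0.11), Epha7 (-0.081 and -0.083), Robo2 (-0.061 and -0.051), Sema3a (-0.017 and -0.035), Sema3e (-0.012 and -0.0055), Sema6b (0.061 and 0.063), Slit1 (0.0026 and 0.0051) and Slit3 (0.042 and 0.018). With block and offset this also held for Ephb6 (0.021) and Plxnd1 (0.018), and with the surrogate variable for Ephb3 (0.037), Nrp2 (-0.0064) and Plxnb1 (0.015). Nrp1 under anti-miR-409-5p ran from -0.020 to 0.011 over the fits that left out 1 library, and was above 0 without control replicate 2 and without anti-miR-409-5p replicate 2 (0.00051). Of these values only those of Epha5 had an adjusted p under 0.05 (edgeR). The cause of these changes was not tested. Depth limited the genes of few counts: 3 counts correspond to about 0.1 CPM, and Epha1 and Epha2 lie near that level.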
